A study of Rattus norvegicus with 29 samples.

Results

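GABA is the main inhibitory transmitter of the brain, and the medium spiny neurons that make up most of the nucleus accumbens release it. The 9 genes described here cover its life cycle and part of its action. They are Gad1 and Gad2 (synthesis), Slc32a1 (loading into vesicles), Slc6a11 (uptake by astrocytes), Abat (breakdown), Gphn (the scaffold that holds GABA-A and glycine receptors at synapses), Gabbr1 and Gabbr2 (the subunits of the GABA-B receptor) and Slc12a5 (a chloride exporter of neurons). The platform's gene table gave these symbols to 17 of 31099 probe sets, and the 9 genes are among 14217 genes that had a probe set of their own. A probe set is a group of short probes summarised into 1 value. Each was kept apart, because probe sets of 1 gene read different parts of its transcripts and can differ.

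The tissue was the shell of the nucleus accumbens, taken from P rats, which were bred over generations to prefer and drink alcohol. The 9 water arrays came from P rats given only water, 10 arrays from P rats with limited ethanol and 10 from P rats with continuous ethanol, and all groups share the P background. By the design text each group had 10 samples, so 1 water sample was not analysed here. Sex, age, ethanol dose and duration are not given in the sources used here, and neither is whether each array came from 1 animal, and the p-values therefore reflect only how far these arrays spread, which may be partly technical.

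GABA is made from glutamate by the decarboxylases that Gad1 and Gad2 encode, is pumped into vesicles by the transporter that Slc32a1 encodes, and is degraded in mitochondria by the transaminase that Abat encodes. Once released it opens GABA-A receptors, which are chloride channels, or activates GABA-B receptors, which act through G proteins on potassium channels, calcium channels and adenylyl cyclase. The GABA-B receptor works as a pair of Gabbr1 and Gabbr2, with Gabbr1 binding GABA and Gabbr2 coupling to the G protein. Slc12a5 encodes KCC2, which keeps chloride low inside neurons so that GABA inhibits them. In the accumbens, baclofen, a drug that activates GABA-B receptors, is a known modifier of ethanol intake in rodents.

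Values are log2 expression, so that a step of 1 is a doubling. All 13 measured markers of medium spiny neurons in a list of 14, among them Drd1, Penk and Ppp1r1b, were bright enough to be tested. So were all measured markers of cortical excitatory neurons (7), cholinergic interneurons (4), astrocytes (10), oligodendrocytes (11), microglia (9) and leptomeninges (15). The count therefore does not tell which cells made up the tissue. Array medians ran from 8.17 to 8.21, and any 2 arrays correlated between 0.971 and 0.997. Water array 9 had the lowest median correlation with the arrays of its own group, 0.979, and limited array 6 the next lowest, 0.987. On the second principal component, which held 16.5% of the variance, 5 arrays lay apart at the low end (scores of -22.2 to -15.6, the next being -3.30), namely water arrays 2, 5 and 6 and limited arrays 6 and 7. Continuous array 4 lay at the other end, with a score of 20.2 against 10.9 for the next array, and it is not among the 5 left out together in some settings. Without continuous array 4 alone, 26 probe sets were called for continuous ethanol against water in place of 33, none of them a member. Water array 2 and limited array 6 recur in what follows. These are tissue samples, so fewer cells of a type and less RNA per cell cannot be told apart.

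None of the 15 member probe sets that could be tested passed the threshold (adjusted p under 0.05) in any comparison of the 3 groups. The test was limma's moderated test over 21729 probe sets with Benjamini-Hochberg adjustment. For continuous ethanol against water 0 of 15 were called, against 33 (0.152%) of all probe sets tested. For limited ethanol against water the count was 0 of 15 and 0% of all, and for limited against continuous ethanol it was 0 of 15 and 0.0046% of all. The moderated F test over the 3 groups called 0 of 15 and 0.0828% of all. At an unadjusted p under 0.05 the count was 1 of 15 (6.67%) for continuous ethanol against water, where 16.1% of all probe sets lay below that level. For limited ethanol against water it was 0 of 15 against 4.44%, and for limited against continuous ethanol 0 of 15 against 9.31%. At these shares the members did not stand out from the rest of the array.

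The intervals show how closely the differences in the members' probe-set values were measured, given the spread among these arrays. For continuous ethanol against water the differences ran from -0.04 to 0.14 log2 units with a median of 0.02, beside a median of 0.0047 over all probe sets tested. All 15 of the 95% confidence intervals lay within a 1.5-fold change, and 13 lay within a 1.2-fold change (81.6% of all probe sets did). For limited ethanol against water the differences ran from -0.0038 to 0.32 with a median of 0.05, and 13 of 15 intervals lay within 1.2-fold (89.1% of all) and 14 within 1.5-fold. The exception was 1369371_a_at of Gabbr1. For limited against continuous ethanol the differences ran from -0.05 to 0.18 with a median of 0.04, and 12 of 15 intervals lay within 1.2-fold (86.2% of all). The medians over all probe sets were 0.00072 and -0.0053 in these comparisons. Each comparison shares a group of arrays with the others, so they are not independent.

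**Figure D1:**
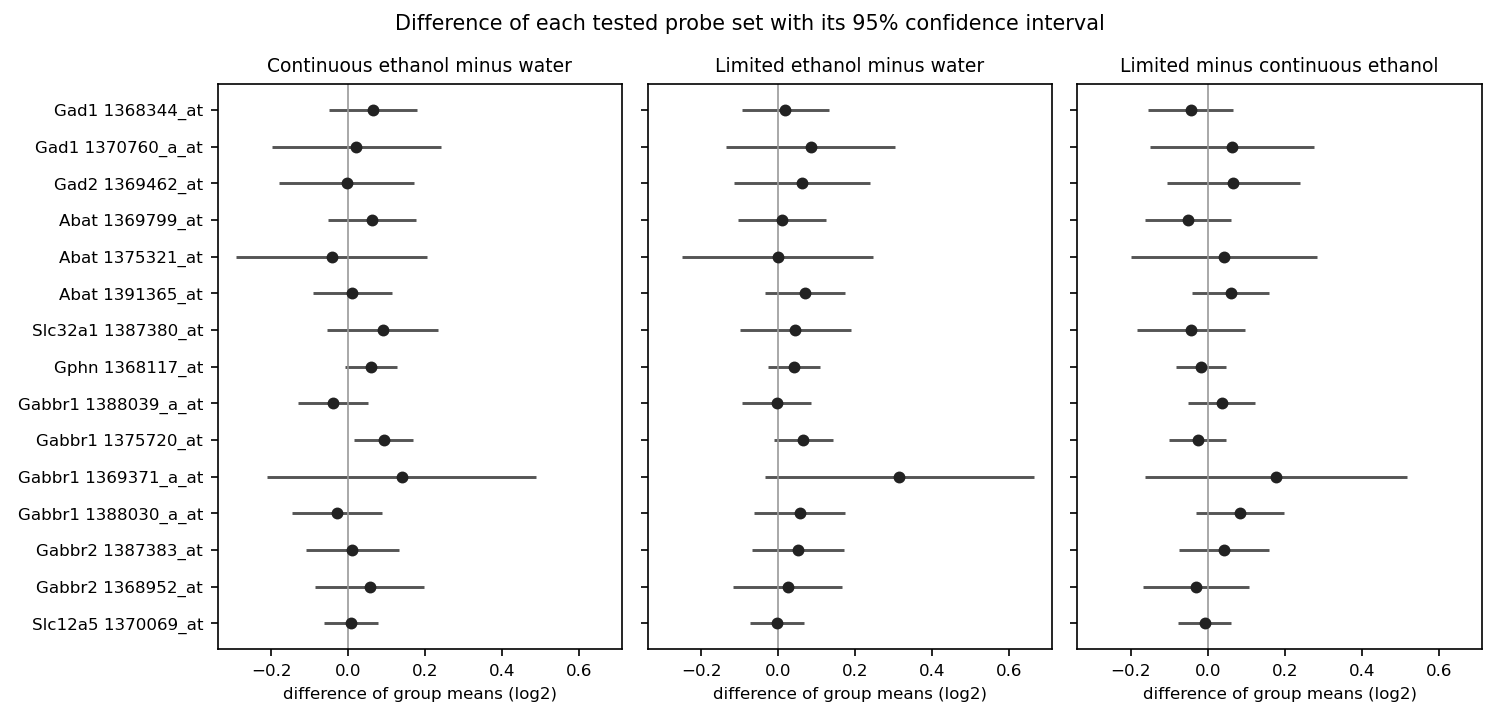
Difference of group means (log2 units, horizontal axis) of the 15 tested member probe sets in the 3 comparisons, with 95% confidence intervals as lines. In continuous ethanol against water the interval of Gabbr1 1375720_at, from 0.02 to 0.17, lies above 0, and the intervals of Gabbr1 1369371_a_at are the widest, reaching 0.66 in limited ethanol against water.

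The sequences just before the starts of Gad1, Gad2 and Slc32a1 are shown because these genes together make and package GABA, and because their levels were low together in the same arrays, as described further on. The sequences are RefSeq's for assembly GRCr8, on the plus strand, read 5′ to 3′ and ending at the base before the outermost annotated start of the gene. They lie at chr3:75777202-75777259 for Gad1, chr17:89671468-89671717 for Gad2 and chr3:167686995-167687244 for Slc32a1. Capitals mark TATAAA and the GC box GGGCGG on either strand.
Gad1: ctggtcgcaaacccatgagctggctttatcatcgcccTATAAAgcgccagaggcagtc
Gad2: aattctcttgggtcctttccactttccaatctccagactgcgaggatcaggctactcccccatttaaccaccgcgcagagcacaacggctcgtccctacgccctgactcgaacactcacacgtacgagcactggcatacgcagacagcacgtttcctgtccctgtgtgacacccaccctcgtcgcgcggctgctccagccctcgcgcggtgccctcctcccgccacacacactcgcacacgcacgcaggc
Slc32a1: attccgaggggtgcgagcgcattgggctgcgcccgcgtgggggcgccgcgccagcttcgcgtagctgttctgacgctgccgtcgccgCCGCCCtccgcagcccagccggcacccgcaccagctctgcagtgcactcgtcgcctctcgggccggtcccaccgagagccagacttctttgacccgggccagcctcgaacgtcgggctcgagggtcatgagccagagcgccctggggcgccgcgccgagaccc

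The Gad1 stretch is 58 bases long, because the table's promoter window overlaps an earlier annotated start, and it holds 1 TATAAA, whose first base lies 21 bases before that start. Among 25777 stretches of 58 bases taken in the same way, 3.55% hold TATAAA. The 250 bases before Gad2 are 62% G and C and hold neither TATAAA nor GGGCGG, and the 250 bases before Slc32a1 are 73.6% G and C and hold 1 GGGCGG, on the minus strand. Of 33469 windows of 250 bases before a start, 12.9% hold TATAAA and 30.5% hold GGGCGG. Also searched on both strands were the cyclic AMP response element TGACGTCA (in 1.59% of the 250-base windows), the homeodomain core TAATTA (4.86%) and the E-box CANNTG (65.5%), and the 3 stretches hold none of them. The 3 genes thus share no motif of this set in these windows. Of stretches of 58 bases, the Gad1 length, only 14.3% hold GGGCGG and 20.7% the E-box. The cyclic AMP response element is in 0.687% of them and the homeodomain core in 0.9%. Their absence from the Gad1 stretch therefore says little. The promoter table matched 8 of the 9 genes.

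Gad1, whose enzyme makes most of the GABA in cell bodies, was read by 2 probe sets, and neither passed the threshold in any comparison. For 1368344_at the water arrays ran from 13.24 to 13.83 with a median of 13.70, the limited arrays from 13.46 to 13.86 with a median of 13.70, and the continuous arrays from 13.59 to 13.90 with a median of 13.72. The groups overlapped, and the lowest array of all was water array 2. The means were 13.67 ± 0.17 (SD, n = 9) with water, 13.69 ± 0.10 (SD, n = 10) with limited and 13.73 ± 0.08 (SD, n = 10) with continuous ethanol. The difference of continuous ethanol from water was 0.06 ± 0.06 (SE; limma adjusted p = 0.579), a change of 4.56% with an interval from -3.38% to 13.2%, and 9 of 10 continuous arrays lay above the water mean. Without water array 2 the difference was 0.011 (adjusted p = 0.936).

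The second Gad1 probe set, 1370760_a_at, varied more, with an SD within groups of 0.25 that exceeded that of 93.8% of tested probe sets. Its means were 10.02 ± 0.26 with water, 10.11 ± 0.14 with limited and 10.04 ± 0.30 with continuous ethanol. The continuous arrays alone ran from 9.53 (array 7) to 10.72 (array 4), a spread of more than a doubling within 1 group. Continuous ethanol differed from water by 0.02 ± 0.11 (limma adjusted p = 0.945), and by -0.05 without water array 2. Across the 29 arrays the 2 Gad1 probe sets moved together, with r = 0.72 for their deviations from the group means (permutation within groups, adjusted p = 6.6e-04 over 11 pairs of probe sets of 1 gene), rho = 0.58 and r = 0.56 without the 2 arrays farthest from the median.

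Gad2 encodes the decarboxylase found mainly at axon terminals. Its probe set 1369462_at ran from 9.31 to 10.01 in the water arrays (median 9.75), from 9.39 to 10.07 in the limited arrays (median 9.82) and from 9.47 to 9.99 in the continuous arrays (median 9.78). The ranges of the 3 groups were close to the same, with water array 2 lowest of all and limited array 6 lowest of its group. The difference of continuous ethanol from water was -0.0041 ± 0.09 (limma adjusted p = 0.988), and that of limited ethanol from water was 0.06 ± 0.09 (adjusted p = 0.973). Limited exceeded continuous ethanol by 0.07 ± 0.08 (adjusted p = 0.832), less than the spread within either group.

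Slc32a1 encodes the vesicular GABA transporter, which GABA and glycine neurons share. Its probe set 1387380_at ran from 10.45 to 11.23 in the water arrays with a median of 10.998, from 10.75 to 11.15 in the limited arrays with a median of 11.03, and from 10.83 to 11.19 in the continuous arrays with a median of 11.04. Water array 2 was again lowest, and the medians lay closer together than the means, which were 10.93 ± 0.21, 10.98 ± 0.13 and 11.02 ± 0.13. The difference of continuous ethanol from water was 0.09 ± 0.07 (limma adjusted p = 0.536), and 7 of 10 continuous arrays exceeded the water mean. Without water array 2 it was 0.03 (adjusted p = 0.850).

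Marker levels of other cells are given beside these values. The mean deviation of 9 tested markers of GABA interneurons (of 11 listed, among them Sst, Npy and Pvalb) ran from -0.22 to 0.04 in the water arrays, from -0.06 to 0.13 in the limited arrays and from -0.07 to 0.12 in the continuous arrays. It was 0.08 higher with continuous ethanol than with water (exact permutation p = 0.0263, adjusted p = 0.0965 over 11 array measures). The mean deviation of 15 tested endothelial and mural markers of 16 ran from -0.03 to 0.34 with water, from -0.09 to 0.12 with limited and from -0.20 to 0.01 with continuous ethanol. It was 0.13 lower with continuous ethanol than with water (exact permutation p = 0.00188, adjusted p = 0.0207), the only one of the 11 measures that passed in any comparison. Water array 2 held the lowest GABA interneuron value, -0.22, and the highest endothelial and mural value, 0.34. The next water array was array 6 in both, at -0.15 and 0.15, and neither measure was compared without water array 2. The part of these measures in the members' values was not tested.

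Abat encodes GABA transaminase, the enzyme that vigabatrin blocks, and it had 3 probe sets. The brightest, 1369799_at, had means of 9.46 ± 0.12 with water, 9.47 ± 0.15 with limited and 9.52 ± 0.10 with continuous ethanol. Its limited arrays lay between 9.39 and 9.61 except array 6 at 9.08. The difference of continuous ethanol from water was 0.06 ± 0.06 (limma adjusted p = 0.601). The probe set 1375321_at had means of 8.37 ± 0.40, 8.37 ± 0.13 and 8.33 ± 0.26, with water array 9 at 7.40 while the other water arrays lay between 8.20 and 8.78. The third, 1391365_at, had means of 7.70 ± 0.10, 7.77 ± 0.06 and 7.71 ± 0.15. Its largest difference was limited ethanol over water by 0.07 ± 0.05 (adjusted p = 0.972), seen in 8 of 10 limited arrays.

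Correlations between the Abat probe sets within groups were -0.03 for 1369799_at with 1375321_at, -0.07 for 1369799_at with 1391365_at and 0.40 for 1375321_at with 1391365_at. None passed after permutation and adjustment (adjusted p = 0.980, 0.980 and 0.175). The 3 probe sets thus give different pictures of how Abat varied among arrays, and none passed in a group comparison.

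Slc6a11 encodes GAT-3, the GABA transporter of astrocyte processes. Its probe set 1369715_at had a mean of 6.71 over all arrays, below the level of 6.86 under which the dimmest 30% of probe sets were left out, so its values come from a fit without that filter. The water arrays ran from 6.32 to 6.98 (median 6.73), the limited arrays from 6.56 to 7.13 (median 6.73) and the continuous arrays from 6.45 to 6.75 (median 6.66). The highest continuous array lay near the median of the limited arrays, and the groups overlapped. Limited exceeded continuous ethanol by 0.17 ± 0.08 (limma, unadjusted p = 0.0372, adjusted p = 0.522), with 9 of 10 limited arrays above the continuous mean. Continuous ethanol lay 0.05 ± 0.08 below water (difference -0.05; adjusted p = 0.779).

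**Figure D2:**
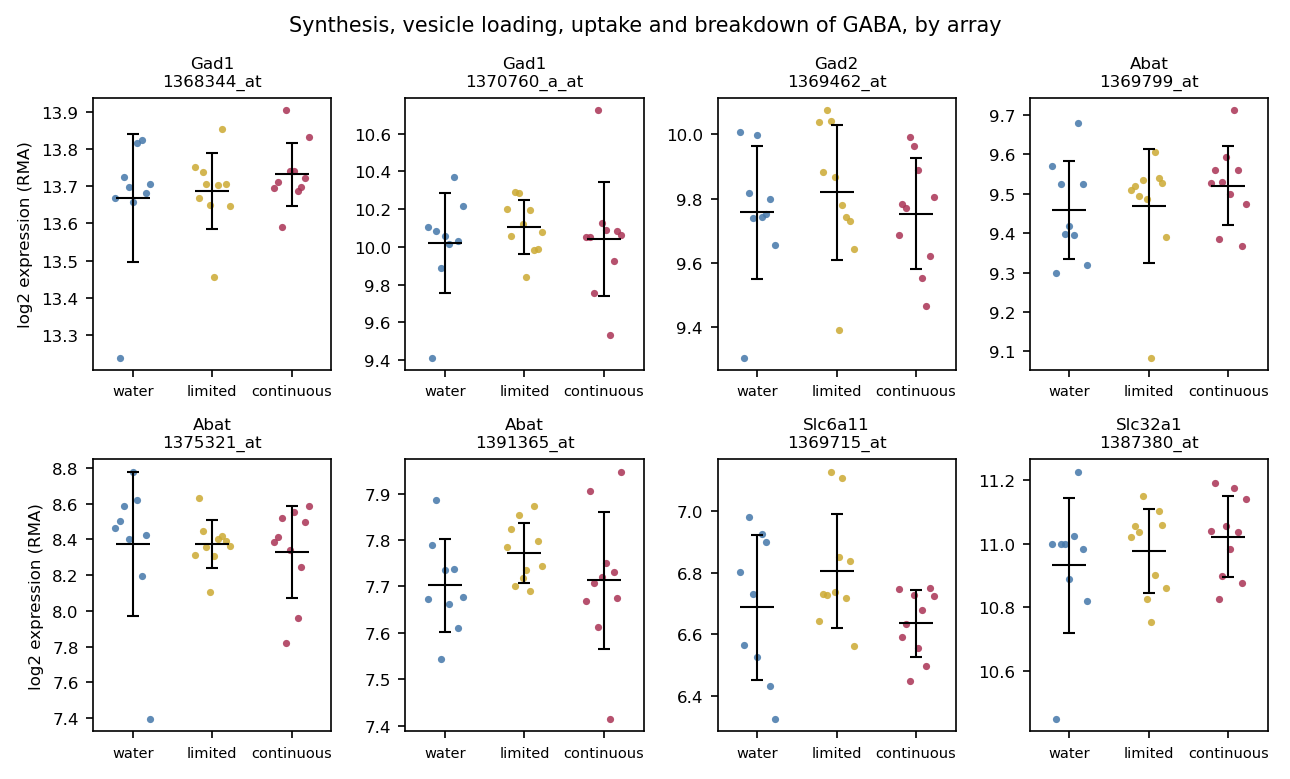
Log2 expression (vertical axis) of the 8 probe sets for synthesis, vesicle loading, uptake and breakdown of GABA in each array, in the order of replicate numbers within a group. Points are arrays (9 water, 10 limited ethanol, 10 continuous ethanol), horizontal bars are group means and error bars are 1 SD; water array 2 lies lowest in both Gad1 panels, in Gad2 and in Slc32a1, at 13.24, 9.41, 9.31 and 10.45.

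Gphn encodes gephyrin, which clusters receptors at inhibitory synapses and also makes the molybdenum cofactor. It was among the steadiest members, with an SD within groups of 0.07 that exceeded that of only 6.55% of tested probe sets. Its probe set 1368117_at ran from 10.92 to 11.22 in the water arrays (median 11.14), from 11.12 to 11.29 in the limited arrays (median 11.18) and from 11.13 to 11.26 in the continuous arrays (median 11.20). Continuous ethanol exceeded water by 0.06 ± 0.03, a change of 4.28% (limma, unadjusted p = 0.0767, adjusted p = 0.363), and 9 of 10 continuous arrays lay above the water mean. Without water array 2, at 10.92 the lowest array, the difference was 0.03 (adjusted p = 0.607).

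Gabbr1, the GABA-binding subunit of the GABA-B receptor, had 5 probe sets, whose differences did not all have the same sign. For continuous ethanol against water the differences were -0.04 ± 0.04 for 1388039_a_at, 0.09 ± 0.04 for 1375720_at, 0.14 ± 0.17 for 1369371_a_at and -0.03 ± 0.06 for 1388030_a_at. The fifth, 1369372_at, with a mean below the filter at 6.54 with water, gave -0.05 ± 0.05 in the fit without a filter. So 2 of 5 lay above 0 and 3 below, and all but 1375720_at lay within 1 SE of 0. For limited ethanol against water 4 of 5 lay above 0 and 1388039_a_at was at -0.0038, and for limited against continuous ethanol 4 of 5 lay above 0 and 1375720_at was at -0.03. None of the pairs of tested Gabbr1 probe sets correlated across arrays after adjustment, and the nearest was 1388039_a_at with 1388030_a_at (r = 0.51, permutation adjusted p = 0.0522).

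The Gabbr1 probe set 1375720_at held the lowest p of the members. Its water arrays ran from 11.59 to 11.97 with a median of 11.90, its limited arrays from 11.85 to 12.04 with a median of 11.92, and its continuous arrays from 11.91 to 12.02 with a median of 11.95. The continuous arrays were tightly packed, with an SD of 0.03 against 0.12 for water, and all 10 lay above the water mean while the ranges overlapped. The difference of 0.09 ± 0.04, or 6.59%, had an unadjusted p of 0.0204 and a limma adjusted p of 0.232, and it ranked 1903 among 21729. Without water array 2, at 11.59 the lowest, it was 0.06 (adjusted p = 0.398), and without the 5 arrays named above it was 0.04 (adjusted p = 0.827). For limited ethanol against water the difference was 0.07 ± 0.04 (adjusted p = 0.972), and it became -0.012 without those 5 arrays.

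The Gabbr1 probe set 1369371_a_at varied most of all members, with an SD within groups above that of 98.4% of tested probe sets. Its 10 limited arrays lay between 10.55 and 10.89 (median 10.74). The continuous arrays reached from 9.93 to 10.80 (median 10.66) and the water arrays from 8.99 to 10.87 (median 10.70). The low values were water array 9 at 8.99, water array 7 at 9.68 and continuous array 4 at 9.93, and the remaining arrays of these groups lay at 10.40 or above. The means, 10.42 ± 0.65 with water, 10.74 ± 0.11 with limited and 10.56 ± 0.26 with continuous ethanol, put limited ethanol 0.32 ± 0.17 above water (limma adjusted p = 0.972), and 10 of 10 limited arrays exceeded the water mean. Without water array 9 this difference was 0.14 and that of continuous ethanol from water changed sign to -0.04, neither with an adjusted p under 0.05.

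The other Gabbr1 probe sets were steadier. The brightest, 1388039_a_at, had means of 12.51 ± 0.09 with water, 12.51 ± 0.11 with limited and 12.47 ± 0.08 with continuous ethanol. For 1388030_a_at the means were 8.37 ± 0.16, 8.42 ± 0.14 and 8.34 ± 0.06, and limited exceeded continuous ethanol by 0.08 ± 0.06 (limma adjusted p = 0.632). For 1369372_at they were 6.54 ± 0.11, 6.59 ± 0.12 and 6.49 ± 0.13.

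Gabbr2, which carries the receptor's signal to the G protein, had 2 probe sets. The brighter, 1387383_at, ran from 11.46 to 11.79 in the water arrays (median 11.63), from 11.45 to 12.15 in the limited arrays (median 11.68) and from 11.50 to 11.73 in the continuous arrays (median 11.67). Limited array 6 stood alone at 12.15, the next limited array being at 11.75. The difference of continuous ethanol from water was 0.01 ± 0.06 (limma adjusted p = 0.948), and that of limited ethanol from water was 0.05 ± 0.06 (adjusted p = 0.972), or 0.0012 without limited array 6. The dimmer 1368952_at had means of 6.88 ± 0.17, 6.91 ± 0.15 and 6.94 ± 0.15, close to the filter level, and its correlation with the brighter one was 0.0036 (permutation p = 0.986).

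Slc12a5 differed by at most 0.0084 in size in the 3 comparisons. Its probe set 1370069_at ran from 13.45 to 13.57 in the water arrays, from 13.42 to 13.60 in the limited arrays and from 13.30 to 13.65 in the continuous arrays, with medians of 13.53, 13.52 and 13.55. The means were 13.52 ± 0.04, 13.52 ± 0.05 and 13.52 ± 0.10. Continuous ethanol differed from water by 0.0066 ± 0.03 (limma adjusted p = 0.948), with an interval from -4.33% to 5.48%, and limited ethanol by -0.0018 ± 0.03 (adjusted p = 0.997). A change in the value of this 1 probe set by over 5.48% against water lies outside the 95% limits in either ethanol group.

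**Figure D3:**
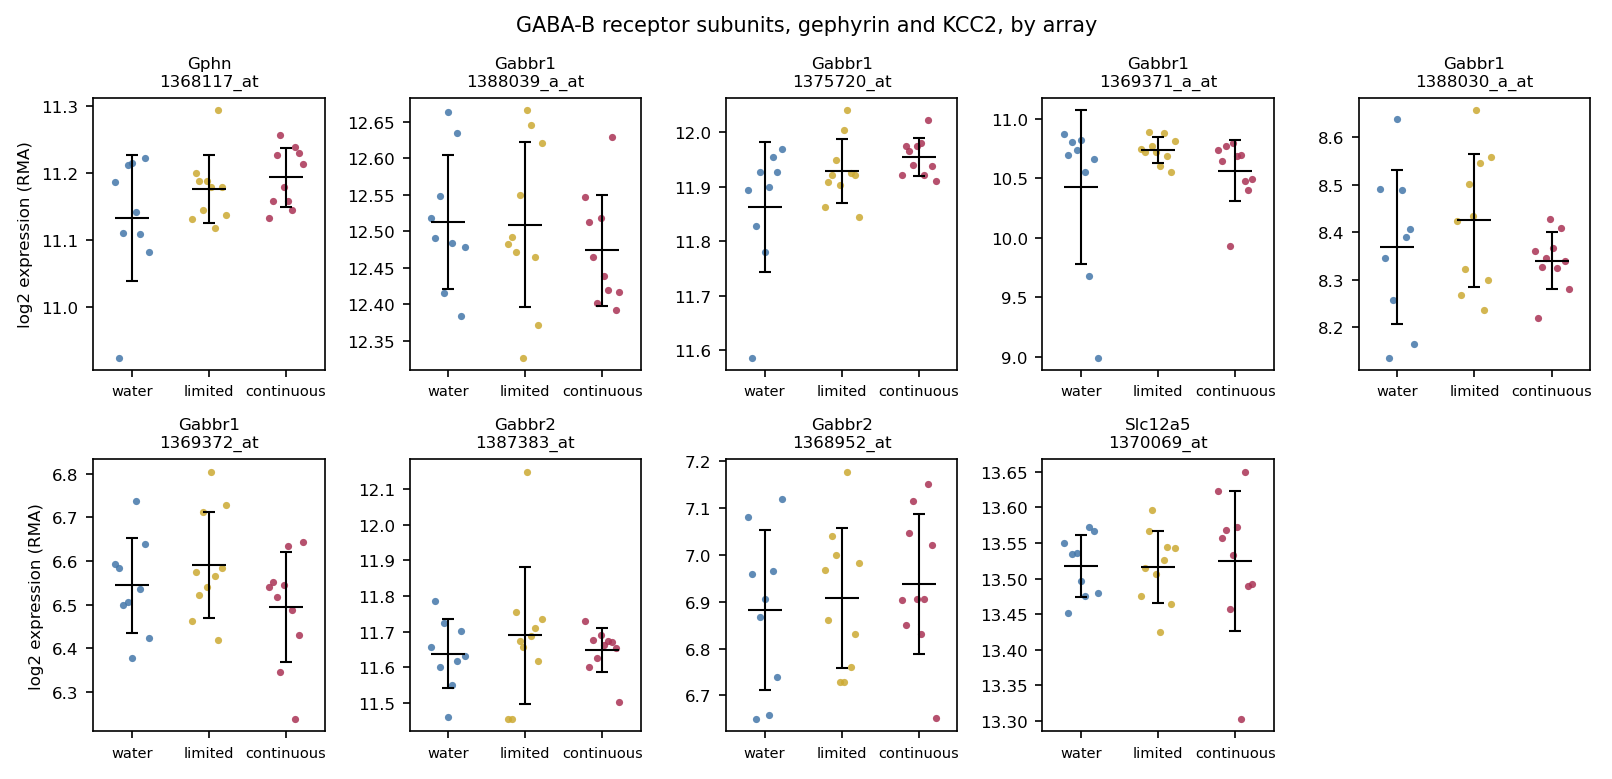
Log2 expression (vertical axis) of the 9 probe sets of Gphn, Gabbr1, Gabbr2 and Slc12a5 in each array, in the order of replicate numbers within a group. Points are arrays (9 water, 10 limited ethanol, 10 continuous ethanol), horizontal bars are group means and error bars are 1 SD; the order of the group means is not the same in all 5 Gabbr1 panels, and water array 9 lies at 8.99 in 1369371_a_at.

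Of the other genes of these pathways, none in 4 lists passed the threshold in any comparison with limma, each gene taken by its brightest tested probe set. The first list, other genes of GABA synthesis, transport and breakdown, had 13 of 18 genes tested, with median differences of -0.01 for continuous ethanol against water, -0.03 for limited ethanol against water and -0.02 for limited against continuous ethanol. Aldh5a1, which completes the breakdown that Abat starts, differed by 0.05 ± 0.05 between continuous ethanol and water (adjusted p = 0.620), and Glul, the glutamine synthetase of astrocytes, by 0.05 ± 0.03 (adjusted p = 0.498). The lowest p for continuous ethanol against water belonged to Gls2, a glutaminase, at -0.09 ± 0.04 (adjusted p = 0.221), and to Slc38a3, a glutamine transporter, at -0.10 ± 0.06 (adjusted p = 0.386). Under limited ethanol against water they belonged to the taurine transporter gene Slc6a6 at -0.09 ± 0.05 and to Got1 at 0.05 ± 0.04 (adjusted p = 0.972 for each). For limited against continuous ethanol they belonged to Slc38a2 at -0.09 ± 0.05 (adjusted p = 0.594) and Glul at -0.05 ± 0.03 (adjusted p = 0.612).

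Among 14 tested genes of 16 for chloride transport, the medians were -0.0023, -0.02 and -0.0016 in the same order of comparisons. Slc12a2, whose product NKCC1 loads chloride into cells against the work of KCC2, differed by 0.02 ± 0.05 between continuous ethanol and water (limma adjusted p = 0.874). Slc4a10, a sodium bicarbonate transporter of neurons, was at 0.20 ± 0.07 (unadjusted p = 0.00765, adjusted p = 0.188), and the carbonic anhydrase gene Car2 at 0.08 ± 0.04 (adjusted p = 0.367). Against water, limited ethanol put Clcn3 at 0.07 ± 0.03 and the kinase gene Stk39 at 0.08 ± 0.04 (adjusted p = 0.972 for each). For limited against continuous ethanol, Slc4a10 stood at -0.13 ± 0.07 (adjusted p = 0.562) and Wnk1 at -0.05 ± 0.04 (adjusted p = 0.633).

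Among 23 tested genes of 30 for the inhibitory postsynaptic scaffold the medians were -0.0048, 0.01 and 0.0083. Nlgn2, the adhesion molecule of inhibitory synapses, differed by 0.14 ± 0.09 between continuous ethanol and water (limma adjusted p = 0.443). For that comparison 7 of the 23 had an unadjusted p under 0.05, beside 16.1% of all probe sets. The counts in the lists of GABA supply, chloride transport and GABA-B effectors were 1 of 13, 1 of 14 and 3 of 25. The lowest p in the scaffold list belonged to the trafficking adaptors Trak1 at -0.13 ± 0.05 (adjusted p = 0.198) and Trak2 at -0.13 ± 0.05 (adjusted p = 0.227). Against water, limited ethanol put the actin regulators Vasp and Enah at -0.13 ± 0.06 and -0.09 ± 0.04 (adjusted p = 0.972 for each). For limited against continuous ethanol, Insyn1 stood at 0.14 ± 0.07 (adjusted p = 0.545) and Trak1 at 0.08 ± 0.05 (adjusted p = 0.587).

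Among 25 tested genes of 30 for GABA-B auxiliary subunits and effectors the medians were 0.0016, 0.01 and 0.02. The potassium channel genes Kcnj3 and Kcnj6, through which the receptor hyperpolarises neurons, were at 0.10 ± 0.08 (limma adjusted p = 0.540) and 0.08 ± 0.09 (adjusted p = 0.643) for continuous ethanol against water, and the auxiliary subunit gene Kctd12 at -0.03 ± 0.03 (adjusted p = 0.709). The inhibitory G protein gene Gnai1 stood at 0.16 ± 0.06 (adjusted p = 0.217) and Adcy5, the adenylyl cyclase typical of striatum, at -0.15 ± 0.07 (adjusted p = 0.259). With limited ethanol the lowest p against water belonged to Gnao1 at 0.18 ± 0.09 and Grk4 at -0.13 ± 0.07 (adjusted p = 0.972 for each). For limited against continuous ethanol they belonged to Cacna1a at 0.10 ± 0.05 (adjusted p = 0.555) and Kcnj5 at 0.14 ± 0.08 (adjusted p = 0.592).

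Within groups, Gad1, Gad2, Slc32a1 and Abat 1369799_at were low in the same 2 arrays. Water array 2 was the lowest water array in 8 of the 17 member probe sets and the highest in 1. Limited array 6 was the lowest limited array in 7 and the highest in 4. Relative to the median of the rest of its group, water array 2 was lower by 0.46 and 0.66 in the Gad1 probe sets (differences of -0.46 and -0.66), by 0.47 in Gad2 (-0.47), by 0.55 in Slc32a1 (-0.55), by 0.24 in Gphn (-0.24) and by 0.17 in Abat 1369799_at (-0.17). The values of limited array 6 were -0.25 and -0.28 for Gad1, -0.47 for Gad2, -0.28 for Slc32a1 and -0.44 for Abat 1369799_at, while Gphn was at the median of the others. The other Abat probe sets were not lowest of their groups in these arrays. In water array 2 and limited array 6, 1375321_at stood at 0.06 and -0.09, and 1391365_at at 0.11 and -0.05. Gabbr2 1387383_at lay above the median of the others in both arrays, with 0.16 in water array 2 and 0.47 in limited array 6. The dimmer Gabbr2 probe set 1368952_at did not do so in both. It stood at 0.07 in water array 2 and at -0.24 in limited array 6, the lowest of its group. Limited array 6 was also the highest limited array in Gabbr1 1388039_a_at (0.18), 1388030_a_at (0.23) and 1369372_at (0.24). In water array 2 these stood at -0.01, -0.05 and 0.06. The other Gabbr1 probe sets, 1375720_at and 1369371_a_at, stood at 0.08 and -0.14 in limited array 6, and at -0.33 and -0.0021 in water array 2.

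These arrays were also low for markers of cholinergic and GABA interneurons. The mean deviation of 4 tested markers of cholinergic interneurons, of 6 listed, was -0.81 in water array 2 and -0.51 in limited array 6, the lowest values of their groups, whose highest were 0.54 and 0.22. GABA interneuron markers were at -0.22 in water array 2 and -0.06 in limited array 6, again the lowest of their groups. Endothelial and mural markers were at 0.34 in water array 2, the highest water array, and at 0.09 in limited array 6. Leptomeningeal markers were at 0.99 in water array 2, the highest water array, and at -0.15 in limited array 6. For medium spiny neurons water array 2 was lowest of its group at -0.24, and limited array 6 stood at 0.03. How far the makeup of the tissue piece bears on these arrays was not tested.

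Across all 29 arrays, 6 of 28 pairs of the 8 tested genes correlated in their deviations from the group means, each gene taken by its brightest probe set (permutation within groups, 100000 resamples, two-sided, Benjamini-Hochberg over the 28 pairs). Gad1 varied with Slc32a1 (r = 0.72, adjusted p = 0.0084), Gad2 (r = 0.60, adjusted p = 0.0223) and Abat (r = 0.53, adjusted p = 0.0273), and Abat with Slc32a1 (r = 0.70, adjusted p = 2.8e-04). The brightest Gabbr2 probe set ran against Gad2 (r = -0.57, adjusted p = 0.0223) and Gad1 (r = -0.51, adjusted p = 0.0253). With the mean of each gene's probe sets, r was -0.32 for Gad2 with Gabbr2 and -0.15 for Gad1 with Gabbr2. Neither passed after adjustment (permutation adjusted p = 0.280 and 0.593). Of the 6 pairs, all but Abat with Slc32a1 rested on water array 2 and limited array 6. Without these arrays r was 0.37 for Gad1 with Slc32a1, 0.17 for Gad1 with Gad2, 0.20 for Gad1 with Abat, -0.26 for Gad2 with Gabbr2 and -0.16 for Gad1 with Gabbr2, and the smallest adjusted permutation p of these 5 was 0.489. Spearman's rho for the same pairs was 0.48, 0.41, 0.31, -0.42 and -0.44 over the 29 arrays, and none passed after adjustment.

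Abat and Slc32a1 kept their relation without those arrays, at r = 0.67 (permutation adjusted p = 0.00672). Spearman's rho was 0.63 (adjusted p = 0.00896), and r was 0.63 without the 2 arrays farthest from the median and 0.76 without the 5 arrays named above. The relation was measured with the Abat probe set 1369799_at, and the other Abat probe sets were not each compared with Slc32a1. With the mean of the 3 Abat probe sets r was 0.34 (adjusted p = 0.280). The raw p of this pair over the 29 arrays was the smallest that 100000 resamples can give.

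The widest probe sets of 2 different genes also moved together. Gabbr1 1369371_a_at and Abat 1375321_at correlated at r = 0.78 (permutation p = 9.6e-04) with rho = 0.44, and were chosen for their spread. Water array 9 was lowest of its group in both, at 8.99 and 7.40, and so was continuous array 4, at 9.93 and 7.82. Without those arrays r was 0.33 (permutation p = 0.137).

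**Figure D4:**
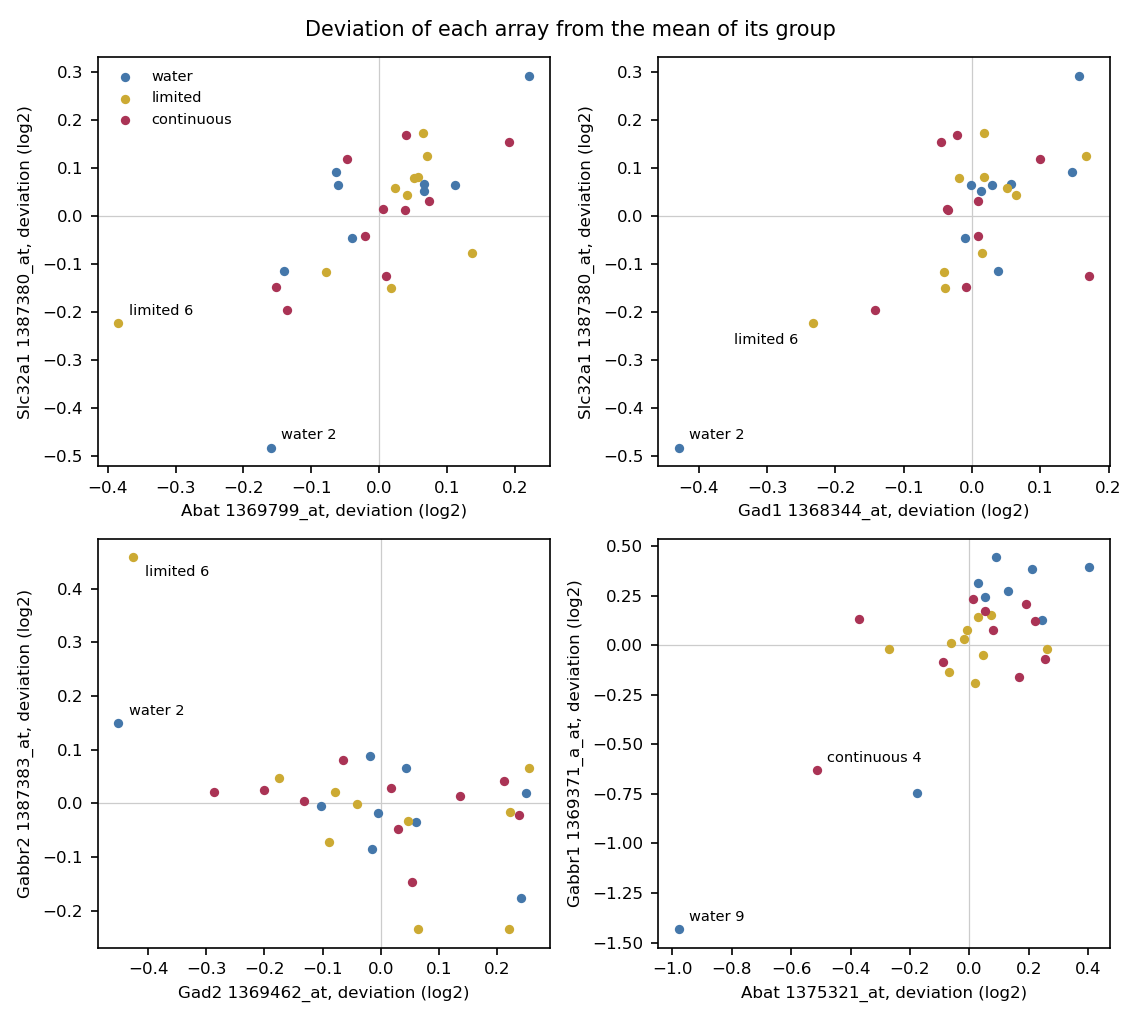
Deviation of each of 29 arrays from its group mean (log2 units on both axes) for 4 pairs of probe sets, coloured by group. The pairs Gad1 with Slc32a1 and Gad2 with Gabbr2 are drawn out by water array 2 and limited array 6 (r of 0.72 and -0.57, and 0.37 and -0.26 without them), Abat with Slc32a1 spreads along the whole cloud (0.70 and 0.67), and the pair of widest probe sets is drawn out by water array 9 and continuous array 4.

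The genes whose deviations were most like those of the members were found over the same 29 arrays among 11327 genes, as a description with no test. All genes are read from the same arrays and so share each tissue piece's makeup. For Slc32a1 they were 6330403K07Rikl (r = 0.91), Chat (0.89) and Slc5a7 (0.85), the last 2 being the genes of acetylcholine synthesis and choline uptake in cholinergic neurons. Without water array 2 and limited array 6 these were 0.82, 0.79 and 0.69. For Gad1 they were Mid2 (0.86), Ap1s2 (0.85) and Meis1 (0.83), at 0.61, 0.73 and 0.76 without those arrays. For Gad2 they were Rnf34 (0.78), Gprasp1 (0.76) and Bex1 (0.72), at 0.66, 0.54 and 0.58. For Abat they were Slc35g2 (0.80), Chadl (0.79) and Rimklb (0.77), at 0.56, 0.68 and 0.60. None of the members was among these leading genes of another.

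For Gphn the most alike were Tab3 (0.77), Glce (0.74) and Synpr (0.74), at 0.62, 0.56 and 0.59 without the same arrays. For Gabbr2 they were Prdm2 (0.79), Sh3rf3 (0.76) and Stx1a (0.75), at 0.42, 0.52 and 0.60. The values of Gabbr1 and Slc12a5 moved less when the 2 arrays were left out. For Gabbr1 1388039_a_at the genes were Agap3 (0.81), Gpr137 (0.81) and Pcsk1n (0.80), at 0.79, 0.80 and 0.79, and for Slc12a5 they were Frmd5 (0.79), Ubp1 (0.79) and Zfp346 (0.76), at 0.78, 0.83 and 0.72.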

How the data were processed

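RNA was extracted with Trizol and RNeasy columns and labelled as biotinylated cRNA for Affymetrix rat arrays, per the labels' protocols. The authors deposited log2 values made with RMA (background correction, quantile normalization and a summary of the probes of each set), per the submitters' processing notes. The base was read from the values, which run from 4.04 to 16.0. The RMA software, batches and scan dates are not given in the sources used here. Number of arrays and not read depth limits the precision, and RMA hides a change of all transcripts together.

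The platform table gave 1 symbol to 20826 probe sets, several to 436 and none to 9780, and 57 control probe sets were left out. None with several symbols names a member. The dimmest 30% by mean were not tested, which left 21729, and 15 of the 17 members. All 29 arrays entered 1 fit (limma 3.58.1, statmod 1.5.0, R 4.3.3; lmFit and eBayes, group as the only factor), tested on simulated data. Adjusted p-values are over all 21729. Array measures are mean deviations of markers (of medium spiny neurons, GABA and cholinergic interneurons, cortical excitatory neurons, astrocytes, oligodendrocytes, microglia, endothelial and mural cells and leptomeninges), the 3 prime minus 5 prime control signal and the SD of the array, compared by exact two-sided permutation. Apart from the endothelial and mural measure, none passed in any comparison.

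The members and lists were chosen with earlier results of these data known. Every member probe set is named. From each list the 2 genes of smallest p in each comparison and Aldh5a1, Slc12a2, Glul, Nlgn2, Kcnj3, Kcnj6 and Kctd12 are named, and likeness uses the 3 closest genes. Alternatives were 14 other settings, each array left out in turn, and correlations without 2 arrays, the last 2 chosen after seeing the data. Of 28 pairs of same-numbered arrays of different groups, 12 had deviations correlated over 0.1 (median 0.078, range -0.24 to 0.34). Arrays of different numbers were not compared in this way, so these values cannot show whether the numbers mark pairs. The labels name no pairs, so the main fit did not use the numbers. A fit with the numbers as a block is among the settings.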

Additional observations from a re-analysis of the deposited data

Results flagged for a closer look

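In 12 of 51 sets of arrays (17 probe sets in 3 groups) the highest or lowest array lay far from its neighbours by Dixon's criterion at the 95% level. Chance alone flags about 1 in 20, which would be 2.55 of 51, and probe sets that vary together are not independent. Water array 2 was low in 5 of them, with Gad1 1368344_at at 13.24, Gad1 1370760_a_at at 9.41, Gad2 1369462_at at 9.31, Gphn 1368117_at at 10.92 and Gabbr1 1375720_at at 11.59. Limited array 6 was low for Gad1 1368344_at at 13.46 and Abat 1369799_at at 9.08, and high for Gabbr2 1387383_at at 12.15. Continuous array 4 was high for Gad1 1370760_a_at at 10.72 and low for Gabbr1 1369371_a_at at 9.93. Water array 9 was low for Abat 1375321_at at 7.40, and limited array 8 was high for Gphn 1368117_at at 11.29.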

How the results depend on the processing

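No member probe set passed the threshold under any of the settings or with any array left out, with limma. Over all settings and left-out arrays the members' differences changed sign 114 times, 113 times where the difference was smaller than its SE. The other was Gabbr1 1375720_at, at -0.012 for limited ethanol against water without the 5 arrays that the second component set apart. The counts over all probe sets moved more, and the cause was not tested. For continuous ethanol against water, 33 became 55 with the replicate block (consensus correlation 0.0505), 12 without the 5 arrays, 11 with the SD of the array and 10 with the cortical score as covariate. Leaving out 1 array gave 18 to 94, with 18 without water array 5, 94 without water array 4, 66 without limited array 6 and 59 without water array 8. For limited ethanol against water, 0 became 1 with array weights. For limited against continuous ethanol, 1 became 2 with the leptomeningeal score and 0 with the 3 prime to 5 prime signal, with the SD of the array or without the 5 arrays, and leaving out 1 array gave 0 to 3. The F test's 18 became 10 with the SD of the array, 11 with the leptomeningeal score and 6 with the cortical score, and lay between 10 and 22 with 1 array left out. The 6 correlated pairs became 1 by Spearman's rho, 1 without the 2 farthest arrays, 1 without the 5 arrays and 1 without water array 2 and limited array 6, and 9 (6 positive and 3 negative) after adjustment for the leptomeningeal score. In each of the 4 settings with 1 pair the pair was Abat and Slc32a1. With the mean of a gene's probe sets 2 pairs passed, Gad1 with Gad2 (r = 0.69) and Abat with Gabbr2 (r = -0.52), and Gad1 with Abat turned to -0.026.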
